A study of Mus musculus with 2 samples.

Results

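The genes described here are the receptors through which cells can receive fibroblast growth factors (FGFs), followed across the cell classes of the embryonic mouse pancreas. They were chosen by symbol: the receptor tyrosine kinase genes Fgfr1, Fgfr2, Fgfr3 and Fgfr4, the kinase-less receptor Fgfrl1, and the co-receptors Kl (alpha-Klotho) and Klb (beta-Klotho). All 7 symbols were found among the 32285 features of the count tables, and together they held 42633 of 339959625 UMIs in the Control library and 35240 of 271129120 UMIs in the Null library. A UMI (unique molecular identifier) marks 1 captured RNA molecule, tagged near its 3′ end by the 10x Genomics droplet assay.

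The series compares pancreas at embryonic day 14.5 with and without Fgf9, and asks what this secreted factor does in pancreas development. Control cells came from 8 pancreata of 3 litters, combined into 1 library, with the genotypes Fgf9 +/+ and +/-. Null cells came from 3 pancreata, also of 3 litters and combined, with the genotype Fgf9 -/-, from a line called Fgf9 LacZ in which a LacZ cassette sits in the gene. Mice of both groups were on a C57BL/6J background, and all live cells were sorted, with no selection for a cell type. Each group is 1 pooled library, so differences were not checked against replicates and no test was possible. Intervals are 95% intervals that cover counting error only.

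FGF receptors are membrane tyrosine kinases that pair up when an FGF binds together with heparan sulfate, and pass the signal on through adaptor proteins to the RAS and ERK kinases. FGF9 is a ligand made mainly by mesothelial and epithelial linings, while FGF10 from mesenchyme acts on the pancreatic epithelium through Fgfr2. Which ligands Fgfr1, Fgfr2 and Fgfr3 accept depends on an exon of the third immunoglobulin loop: the upstream (IIIb) form is typical of epithelium and the downstream (IIIc) form of mesenchyme. FGF9 binds IIIc forms and the IIIb form of Fgfr3. Fgfrl1 binds FGFs without a kinase domain, and the Klotho proteins let receptors respond to the hormone-like FGFs.

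The measured counts cannot choose between the upstream and downstream exon. In the annotated transcripts of GENCODE vM21 (GRCm38) 2890 bases follow the upstream and 2823 bases the downstream exon of Fgfr2, 3181 bases follow either exon of Fgfr1, and 2854 bases follow either exon of Fgfr3. A tag near the 3′ end therefore counts both forms together, and every level below is the sum of IIIb and IIIc. The gene records lie on chromosome 8 (Fgfr1, 25513654 to 25575718, plus strand), chromosome 7 (Fgfr2, minus strand; its coding transcripts run from about 130162481 to 130266254), chromosome 13 (Fgfr4, 55152640 to 55168759, plus strand) and chromosome 5 for the rest, all on the plus strand: Fgfr3 from 33721674 to 33737068, Klb from 65348314 to 65384007, Fgfrl1 from 108692382 to 108706924 and Kl from 150952607 to 150993817. The counted antisense gene Gm16159 overlaps Fgfr1, and because it is not given whether counting used strand, reads of the pair may not be told apart. The whole gene record of Fgfr2 spans 2960900 bases and overlaps 69 genes. Some of these are counted and on the same strand, such as Ate1 and Nsmce4a. Their part in the Fgfr2 counts was not tested.

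Cells were grouped by markers without using any of the 7 genes or other FGF pathway genes. Every listed marker of each class was detected in that class in both libraries. Detection alone does not set a class apart: all 10 mesenchymal markers were also detected in acinar and immune cells of both libraries. Named classes held 13323 Control cells (median 16261 UMIs) and 7723 Null cells (median 27060 UMIs). Unnamed barcodes numbered 10680 in Control (41.0%) and 544 in Null (5.95%), with median UMI counts of 1652 and 1316. The libraries also differed in sex: 6784 of 13323 named Control cells and 2 of 7723 named Null cells had more than 1 UMI of Xist. Fgf9 itself stood at 125 CPM (UMIs of the gene per 1000000 UMIs of a class) in Control and 36.9 CPM in Null mesothelial cells, and at 8.89 and 1.70 CPM over all kept cells. It was lower in Null in every class with over 200 cells, but a tag near the 3′ end can lie outside the disrupted part of the gene, so the remaining counts are no measure of intact Fgf9.

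Receptors were unevenly spread over the pancreas. Mesenchymal, mesothelial and endothelial cells carried mostly Fgfr1. Ductal or bipotent progenitor cells carried mostly Fgfr2, with Fgfrl1, Fgfr4 and Fgfr3 beside it. Endocrine progenitors carried all of Fgfr1, Fgfr2, Fgfr3 and Fgfr4, endocrine cells had less of each, and Klb was highest in endocrine cells. Levels are given as CPM over the summed UMIs of a class. The assay counts 1 tag per molecule, so levels of different genes are set side by side without a length correction, and unequal capture of their 3′ ends was not tested.

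**Figure D1:**
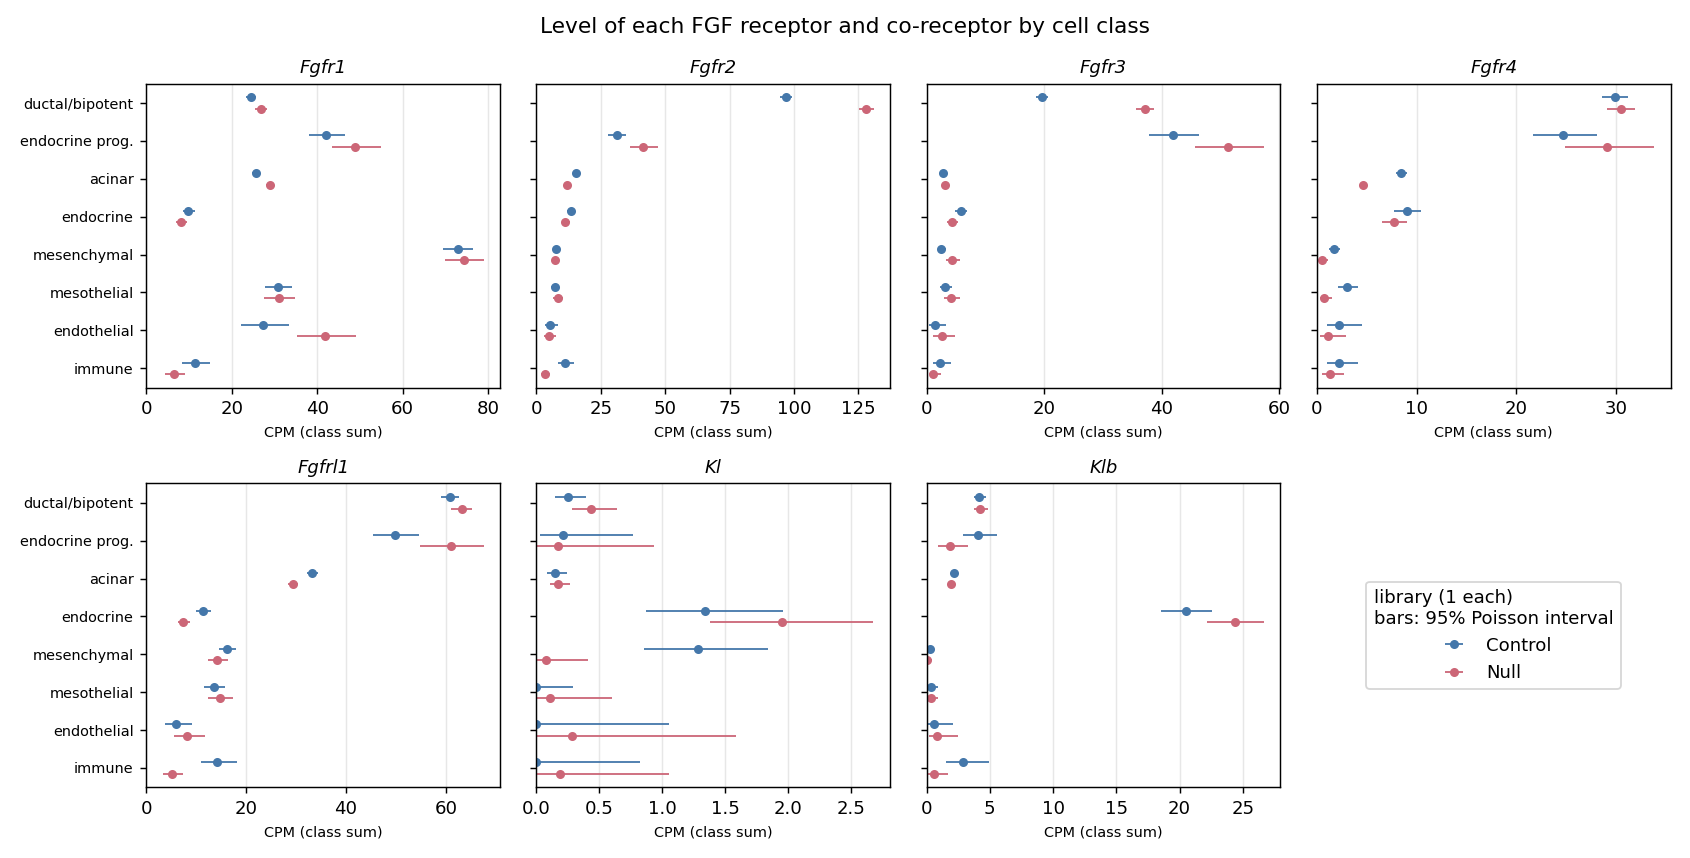
CPM of each of the 7 genes (horizontal axis, summed per class) in the 8 classes with at least 200 cells in each library. Points are the Control (blue) and Null (red) libraries with 95% Poisson intervals. Fgfr1 is highest in mesenchymal cells (72.9 and 74.3 CPM), Fgfr2 in ductal or bipotent progenitor cells (97.0 and 128 CPM) and Klb in endocrine cells (20.5 and 24.3 CPM).

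Fgfr1 was highest in mesenchymal cells, at 72.9 CPM in Control (interval 69.5 to 76.5, 1654 UMIs) and 74.3 CPM in Null (69.8 to 79.0, 1017 UMIs). Endocrine progenitors followed with 42.1 and 48.9 CPM. Mesothelial cells had 30.8 and 31.0 CPM, endothelial cells 27.4 and 41.8 CPM, acinar cells 25.6 and 29.0 CPM, and ductal or bipotent progenitor cells 24.4 and 26.9 CPM. Neighbours among these last 4 classes did not differ in Control beyond their counting intervals. Immune cells (11.4 and 6.43 CPM) and endocrine cells (9.86 and 8.25 CPM) were lowest and did not separate from each other in either library.

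The share of cells with an Fgfr1 UMI gave the same picture once each cell was thinned to 2000 UMIs. It was 13.01% of mesenchymal cells in Control (11.7 to 14.4%) and 14.8% in Null (12.3 to 17.5%), against 46.4% and 62.9% before thinning. Immune cells, a class in which little FGF receptor is known, gave 0.319% and 1.62% after thinning (median depths of 11577 and 18032 UMIs before it). This stands here as a rough background level, as it rests on 1 Control and 4 Null UMIs. The share was higher in Null, while the unthinned immune level was lower in Null (11.4 and 6.43 CPM).

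Fgfr2, the receptor for mesenchymal FGF10 in the epithelium, was highest in ductal or bipotent progenitor cells, at 97.0 CPM in Control (94.7 to 99.3, 6971 UMIs) and 128 CPM in Null (125 to 131, 7414 UMIs). Endocrine progenitors had 31.2 and 41.5 CPM, acinar cells 15.4 and 11.98 CPM, and endocrine cells 13.4 and 11.3 CPM. Mesenchymal cells had 7.58 and 7.31 CPM and mesothelial cells 7.19 and 8.29 CPM. In Control these stromal levels were below the 11.1 CPM of immune cells, and the thinned share of mesenchymal cells with an Fgfr2 UMI (1.55%) was below that of immune cells (1.91%). Free RNA was estimated from barcodes below 2000 UMIs, which included barcodes kept as cells. By that estimate it was 96.1 of the 172 Fgfr2 UMIs of Control mesenchymal cells, 47.5 of 92 in mesothelial and 20.2 of 50 in immune cells. In Null the stromal levels lay above the 3.22 CPM of immune cells, with 25.5 of 100 mesenchymal and 16.6 of 77 mesothelial UMIs estimated as free RNA.

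Fgfr3, a receptor whose IIIb and IIIc forms both bind FGF9, was restricted in level to the progenitor epithelium. Endocrine progenitors had 42.0 CPM in Control and 51.3 CPM in Null, and ductal or bipotent progenitor cells had 19.7 and 37.1 CPM. Every other class with at least 200 cells lay between 1.43 and 5.80 CPM in Control and between 1.14 and 4.41 CPM in Null. After thinning, an Fgfr3 UMI was seen in 8.57% of Control and 11.3% of Null endocrine progenitors, against 0.319% and 0% of immune cells.

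Fgfr4 shared the epithelial pattern. Ductal or bipotent progenitor cells had 29.8 and 30.5 CPM and endocrine progenitors 24.7 and 29.1 CPM, followed by endocrine cells (9.03 and 7.74 CPM) and acinar cells (8.45 and 4.67 CPM). Mesothelial cells (3.05 and 0.753 CPM) and mesenchymal cells (1.72 and 0.585 CPM) lay at the level of immune cells (2.23 and 1.32 CPM).

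Fgfrl1, which lacks the kinase domain, was also highest in the epithelium. It stood at 60.9 CPM in Control and 63.1 CPM in Null ductal or bipotent progenitor cells, 49.8 and 61.0 CPM in endocrine progenitors, and 33.2 and 29.4 CPM in acinar cells. Mesenchymal cells had 16.3 and 14.3 CPM and mesothelial cells 13.5 and 14.7 CPM, close to the 14.3 CPM of Control immune cells and above the 5.11 CPM of Null immune cells. Control endocrine (11.4 CPM) and endothelial cells (6.00 CPM) lay below the Control immune level.

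The co-receptors were scarce. Klb, the partner of receptors for FGF15 and FGF21, stood at 20.5 CPM in Control (399 UMIs) and 24.3 CPM in Null (475 UMIs) endocrine cells, and at 4.26 CPM or less elsewhere among these 8 classes. Kl, the partner for FGF23, had 93 UMIs over all named Control cells and 89 over all named Null cells. Among the 8 large classes it stood at 1.33 and 1.95 CPM in endocrine cells, with 29 UMIs (1.28 CPM) in Control mesenchymal cells and 1 UMI in Null mesenchymal cells. In Control the endocrine and mesenchymal levels did not differ beyond their counting intervals.

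The smaller classes were measured with few UMIs. In visceral smooth muscle cells (41 Control, 18 Null) Fgfr1 stood at 32.3 and 26.4 CPM and Fgfr2 at 22.2 and 20.5 CPM, each from 16 UMIs or fewer. Glial cells (56 and 95) had Fgfr1 at 32.5 and 29.6 CPM, and neuronal cells (93 and 55) at 23.8 and 19.3 CPM. Their intervals were wide, as for Null smooth muscle Fgfr1 at 12.1 to 50.1 CPM.

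Expressed as a share of the UMIs of Fgfr1 to Fgfr4, the leading receptor of the mesenchymal, mesothelial and ductal or bipotent progenitor classes had a like share in both libraries, while some lesser receptors did not. In mesenchymal cells Fgfr1 made up 86.1% of them in Control and 85.8% in Null, and 69.8% and 70.1% in mesothelial cells. Fgfr2 made up 56.7% and 57.5% in ductal or bipotent progenitor cells. There the Fgfr3 share was 11.5% in Control (10.96 to 12.1%) and 16.7% in Null (16.1 to 17.4%), and the Fgfr4 share 17.5% and 13.7%. The Fgfr4 share of mesothelial cells was 6.89% and 1.70%, with 18.9 of 39 Control and 3.27 of 7 Null Fgfr4 UMIs estimated as free RNA. The Fgfr3 share of mesenchymal cells was 2.97% and 5.06%. In endocrine progenitors Fgfr1 and Fgfr3 had like shares: Fgfr1 gave 30.1% and 28.6%, Fgfr3 30.0% and 30.0%, Fgfr2 22.3% and 24.3%, and Fgfr4 17.7% and 17.0%. In acinar cells the Fgfr1 share was 49.1% in Control and 59.3% in Null.

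**Figure D2:**
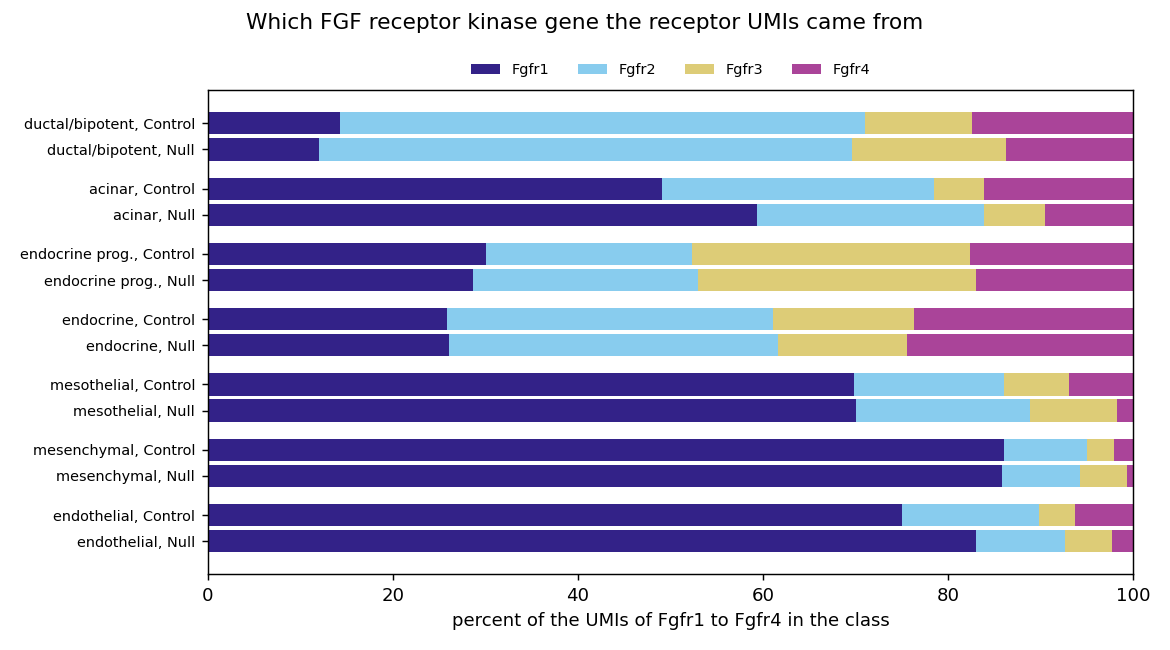
Share of the summed UMIs of Fgfr1 to Fgfr4 that came from each gene (horizontal axis, percent) in 7 classes, with Control above Null. Fgfr1 takes 86.1% and 85.8% in mesenchymal cells, and Fgfr2 takes 56.7% and 57.5% in ductal or bipotent progenitor cells.

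Within the epithelium the receptors varied by cluster. The clusters were formed without the 7 genes, and are named by leading genes. A ductal cluster led by Dcdc2a, Cdh6 and Slc2a2 (132 Control and 541 Null cells) had the most Fgfr2 of the clusters with at least 50 cells in both libraries, at 173 and 168 CPM, and Fgfr3 at 51.7 and 58.0 CPM. A ductal cluster led by Gm35533, Dcdc2a and Spp1 (1187 and 389 cells) had Fgfr2 at 110.4 and 129.6 CPM and Fgfr3 at 21.9 and 24.6 CPM. An acinar cluster with Onecut1 among its leading genes (118 and 66 cells) had Fgfr2 at 52.2 and 46.0 CPM, where the acinar class as a whole had 15.4 and 11.98 CPM.

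The endocrine branch differed by step. A cluster led by Neurog3, Insm1 and Grin3a (226 Control and 93 Null cells) had Fgfr1 at 64.6 and 65.3 CPM, Fgfr2 at 44.5 and 74.8 CPM, Fgfr3 at 44.5 and 67.6 CPM, and Fgfr4 at 39.0 and 42.4 CPM. Neurog3 is the transcription factor that starts endocrine fate. A cluster led by Neurog3 and Cck (469 and 203 cells) had lower values of each, though Control Fgfr3 differed little. They were Fgfr1 27.3 and 38.3 CPM, Fgfr2 23.7 and 22.3 CPM, Fgfr3 40.1 and 44.1 CPM, Fgfr4 19.5 and 23.7 CPM. The cluster with Chgb and Fev (581 and 267 cells), a factor of hormone-low endocrine precursors, had 9.33 and 8.35 CPM of Fgfr1 and 6.50 and 7.28 CPM of Fgfr3.

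Klb followed the opposite course along these clusters. It stood at 3.15 and 0.558 CPM in the Grin3a cluster, 12.9 and 13.5 CPM in the Fev cluster, and 34.6 CPM in Control and 43.8 CPM in Null in the cluster led by Gast and Gcg (548 and 394 cells), the glucagon gene of alpha cells. That cluster held 277 of the 399 Klb UMIs of Control endocrine cells and 370 of the 475 in Null, and 19 of 26 and 25 of 38 Kl UMIs. The cluster led by Ins1 and Ins2 (168 and 185 cells) had 5.86 and 4.46 CPM of Klb. A cluster led by Ghrl (76 Control cells) had Fgfr4 at 22.9 CPM.

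**Figure D3:**
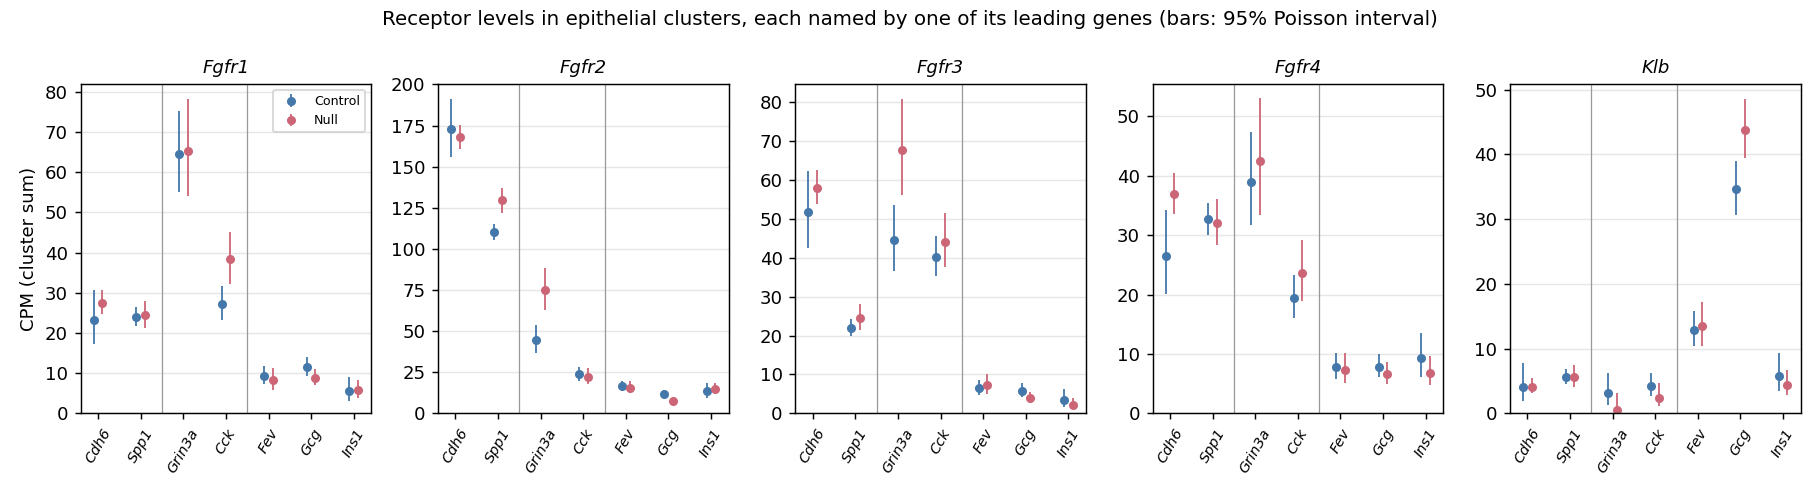
CPM (vertical axis) of Fgfr1, Fgfr2, Fgfr3, Fgfr4 and Klb in 7 epithelial clusters, each named on the horizontal axis by one of its leading genes, with Control in blue, Null in red and 95% Poisson intervals. Fgfr1 reaches 64.6 and 65.3 CPM in the Grin3a cluster and is 11.5 CPM or less in the Fev, Gcg and Ins1 clusters, while Klb is highest in the Gcg cluster at 34.6 and 43.8 CPM.

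Mesenchymal clusters shared high Fgfr1. Among clusters of at least 50 cells it ranged from 33.5 to 82.9 CPM in Control and from 60.7 to 125.8 CPM in Null. The lowest Control value was in a cluster with Thy1 and Plac8 (78 Control and 280 Null cells), where Null stood at 64.7 CPM, and the highest Null value in a cluster with Dpt and Fibin (128 and 55 cells), where Control stood at 81.9 CPM. The libraries filled different clusters: those led by Nrg1 and Tenm1 (893 and 4 cells) and by Syt6 and Tlx1 (635 and 19 cells) were mostly Control, and that of Mgp and Mab21l2 (7 and 136 cells) mostly Null. The 2 Control clusters held 13 and 9 of the 29 Kl UMIs of Control mesenchymal cells. Scored against the clusters of the mesenchyme, the Thy1 and Plac8 cluster had markers of mural cells as its highest list (1.51). That of Mgp and Mab21l2 had smooth muscle markers (2.89, mesenchymal 0.93). Both stayed in the class. Over the class, smooth muscle markers summed to 301 CPM in Control and 741 CPM in Null. Their part in the mesenchymal ratios was not tested.

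The second comparison is Null against Control within a class. Of 44 pairs of gene and class with at least 20 UMIs over both libraries, 6 were at least 2-fold lower in Null and 0 were at least 2-fold higher, where 2.07% to 6.14% of all measured genes in a class were lower and 1.24% to 6.12% higher. By the counting interval alone, 11 ratios lay below 0 and 10 above it. The share of all genes with such intervals was not computed, so these 2 counts have no background. Ratios are given as log2 of Null CPM divided by Control CPM.

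**Figure D4:**
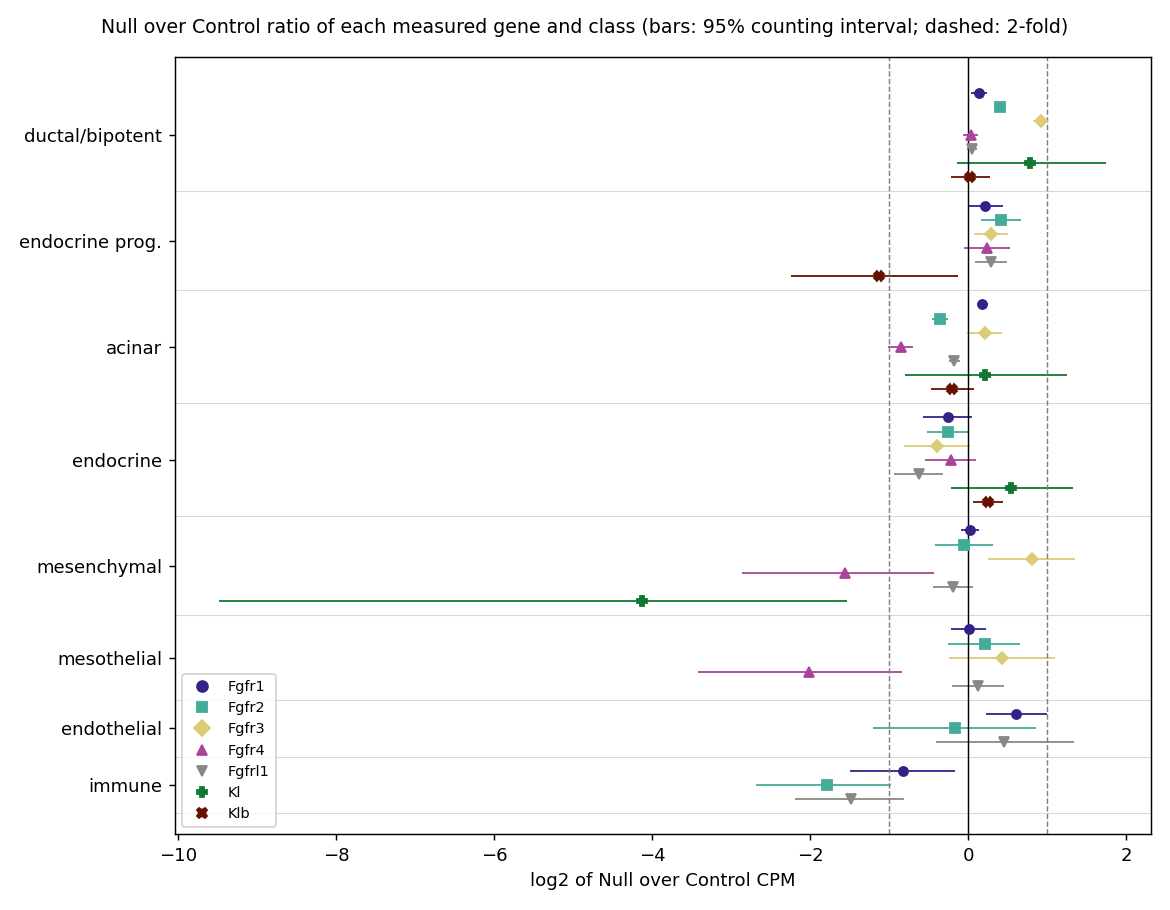
Log2 of Null over Control CPM (horizontal axis) for the 44 measured pairs of gene and class, 1 marker per gene, with 95% counting intervals and dashed lines at a 2-fold difference. Fgfr1 in mesenchymal cells lies at 0.03 and Fgfr3 in ductal or bipotent progenitor cells at 0.92, and the 6 points left of the lower dashed line include Kl and Fgfr4 in mesenchymal cells.

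In mesenchymal cells the main receptor, Fgfr1, had a ratio of 0.03 (-0.09 to 0.14), and of 0.33 with clusters weighted alike and 0.26 with thinned cells. Fgfrl1 (-0.19) and Fgfr2 (-0.05) had intervals that included 0. Of 6 measured members 2 were past the 2-fold limit, Fgfr4 at -1.56 (-2.87 to -0.44; 39 and 8 UMIs) and Kl at -4.13 (-9.48 to -1.54; 29 and 1 UMIs), while 5.85% of 14650 measured genes were lower to that extent and 4.49% higher. With no doublets removed the Kl ratio was -1.72 and the Fgfr4 ratio -0.97, short of the limit. The estimate of free RNA equalled 38.1 of the 39 Control Fgfr4 UMIs and 5.02 of the 8 Null ones. Fgfr3 was at 2.51 CPM in Control and 4.39 CPM in Null (0.80, 0.26 to 1.35). Of its 60 Null UMIs 24 lay in the Mgp and Mab21l2 cluster, and the ratio was 0.02 with no doublets removed and 0.08 with clusters weighted alike.

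In the mesothelial class, the one richest in Fgf9, the Fgfr1 ratio was 0.01 (-0.22 to 0.23), and 0.26 with clusters weighted alike. The only member of 5 past the limit was Fgfr4 at -2.02 (-3.42 to -0.84; 39 and 7 UMIs), against 5.13% of 13893 genes lower and 6.12% higher. The estimate of free RNA was 18.9 of these Control UMIs and 3.27 of the Null ones. The libraries again filled different clusters: the largest of the class in Control had 351 Control and 2 Null cells, that in Null 4 and 202 cells. Scored against the clusters of the mesothelium, the latter had mesenchymal markers as its highest list (1.76, mesothelial 0.45) but stayed in the class. Over the class, mesenchymal markers summed to 3063 and 9251 CPM and mesothelial markers to 1637 and 1695 CPM. These ratios need not be those of the lining alone.

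In ductal or bipotent progenitor cells all 7 ratios were above 0, none past the limit, where 2.07% of 16347 genes were lower and 2.54% higher; the median of all genes was 0.09. With cells thinned to 2000 UMIs, 3 of 6 ratios were below 0 there: Klb (-0.98), Fgfrl1 (-0.22) and Fgfr4 (-0.01). Fgfr2 was higher in Null at 0.40 (0.35 to 0.45), and Fgfr3 at 0.92 (0.82 to 1.01), while Fgfr4 (0.03) and Fgfrl1 (0.05) had intervals that included 0. The Cdh6 cluster, richest in Fgfr2 and Fgfr3, held 132 Control and 541 Null cells. Inside it the ratios were -0.04 for Fgfr2 (-0.20 to 0.12) and 0.17 for Fgfr3 (-0.12 to 0.47). With the clusters weighted alike the class ratios were 0.09 for Fgfr2 and 0.38 for Fgfr3.

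Fgfr3 was higher in Null inside several other ductal clusters. It stood at 11.2 CPM in Control and 26.8 CPM in Null in one led by Gm14226 and BC006965 (1.26, 0.85 to 1.68), at 20.02 and 41.1 CPM in the S phase cluster with Hist1h1b (1.04, 0.83 to 1.25), and at 18.4 and 33.4 CPM in the mitotic cluster with Cenpf (0.86, 0.65 to 1.07). In the Spp1 cluster the Fgfr3 ratio was 0.17 (-0.08 to 0.41). Fgfr2 ratios in those 4 clusters lay between 0.23 and 0.50.

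Endocrine progenitors had Fgfr2 at 0.41 (0.16 to 0.66), Fgfr3 at 0.29 (0.07 to 0.51) and Fgfrl1 at 0.29 (0.09 to 0.49), all higher in Null but under 2-fold. Of 6 members only Klb was past the limit, at -1.13 (-2.25 to -0.13; 38 and 11 UMIs), against 2.44% of 12785 genes lower and 1.3% higher. Its ratio was -0.18 at a finer clustering (Leiden resolution 2). In the Grin3a cluster the Fgfr2 ratio was 0.75 (0.38 to 1.12) and in the Cck cluster -0.09 (-0.50 to 0.31).

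Acinar cells had lower Fgfr4 in Null, at -0.85 (-1.01 to -0.70), with Fgfr2 at -0.36 (-0.46 to -0.26), Fgfrl1 at -0.18 (-0.24 to -0.11) and Fgfr1 at 0.18 (0.11 to 0.25). With thinned cells these ratios were -1.23 for Fgfr4 and -0.09 for Fgfr2. With clusters weighted alike the Fgfr4 ratio was -0.61. The libraries filled the acinar clusters unevenly too. The one led by Cela2a, Try10 and Try5 held 389 Control and 723 Null cells, and the one led by Serpini2, Nupr1 and P2rx1 held 893 and 370. The part of this mix in the ratios was not tested. None of 7 members passed the limit, where 3.04% of 16462 genes were lower and 1.86% higher. In endocrine cells Fgfrl1 was at -0.62 (-0.93 to -0.32) and Klb at 0.25 (0.05 to 0.44), with none of 7 members past the limit against 3.83% of 14951 genes lower and 1.24% higher.

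Endothelial Fgfr1 was 1.52-fold higher in Null (0.61, 0.23 to 0.99), from 96 and 147 UMIs, and none of 3 members passed the limit against 2.36% of 11019 genes lower and 2.27% higher. With cells thinned to 2000 UMIs that ratio was 0.09, and the thinned share of cells with an Fgfr1 UMI was 6.58% and 6.41%. In immune cells Fgfr2 (-1.79, 50 and 17 UMIs) and Fgfrl1 (-1.48, 64 and 27 UMIs) were past the limit, 2 of 3 members, against 6.14% of 12143 genes lower and 2.19% higher. The estimated share of free RNA was 18.2% in Control and 9.78% in Null immune cells, and mesenchymal markers (all 10 detected in both libraries) summed to 438 and 98.8 CPM in them; their part in these ratios was not tested. With clusters weighted alike the immune Fgfr2 ratio turned to 1.35.

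The rest of the pathway was described by lists of genes, each by its counts and median. The adaptors and relay kinases that carry the signal from the receptor (Frs2, Grb2, Ptpn11 and others) showed no member past the limit. None of the 21 or 22 measured genes was past 2-fold in any of the 8 classes, against 2.07% to 6.14% of all genes lower and 1.24% to 6.12% higher. In ductal or bipotent progenitor cells Ptpn11, the phosphatase SHP2, was at 64.0 and 87.4 CPM (0.45, 0.39 to 0.51) and Gab1, a docking protein, at 38.7 and 51.7 CPM (0.42, 0.34 to 0.49).

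The ERK feedback genes and ETV factors, which are induced by receptor signalling, were described in the same way. In mesothelial cells 5 of 16 measured genes were lower past 2-fold and 1 higher (median -0.48, all genes -0.02), against 5.13% of all genes lower and 6.12% higher. Mesenchymal markers (all 10 detected) summed to 3063 CPM in Control and 9251 CPM in Null mesothelial cells, and smooth muscle markers to 86.2 and 305 CPM; their part in this and the other mesothelial lists was not tested. There Il17rd, an inhibitor of FGF receptors, was at 23.6 CPM in Control and 4.95 CPM in Null (-2.25, -2.73 to -1.80), Ccnd1, cyclin D1, at 43.1 and 10.7 CPM (-2.02), and Etv1 at 19.0 and 7.32 CPM (-1.37). The others past the limit were Etv5 (-1.08), Spry2 (-1.05) and, upward from 8 and 12 UMIs, Dusp4 (1.05); these were named after their values were seen. With free RNA subtracted the mesothelial median was -0.07, with 4 genes lower past 2-fold. The counts of ratios below 0 that follow have only the median of all genes beside them, not the share of all genes below 0. In ductal or bipotent progenitor cells 15 of 19 ratios were below 0 (median -0.22, all genes 0.09), with Etv5 at 6.73 and 3.62 CPM (-0.89, -1.13 to -0.66). None was past 2-fold there, against 2.07% of all genes lower and 2.54% higher. In endocrine progenitors 14 of 17 were below 0 (median -0.40, all genes 0.05). In mesenchymal cells 6 of 19 were below 0 (median 0.10, all genes 0.02). The largest ratios in each direction there were those of Dusp7 (-0.94) and Flrt3 (0.81). The feedback inhibitor Spry1 was at 51.5 and 27.8 CPM (-0.89) and Spry2 at 15.5 and 24.6 CPM (0.67). In acinar cells 16 of 19 were below 0 (median -0.20, all genes -0.005), with Etv4 at 2.19 and 0.542 CPM (-2.02) and, named after its value was seen, Spry3 at 1.35 from 9 and 26 UMIs. These were the 1 lower and the 1 higher past 2-fold, against 3.04% of all genes lower and 1.86% higher. In endothelial cells 7 of 17 were below 0 (median 0.18, all genes 0.09), with Spry4 at 25.1 and 51.7 CPM (1.04). Spry4 was the 1 higher past 2-fold there and 0 were lower, against 2.27% of all genes higher and 2.36% lower. In endocrine cells 10 of 17 were below 0 (median -0.06, all genes 0.007) and in immune cells 9 of 13 (median -0.07, all genes -0.04), medians near those of all genes. In immune cells 2 of 13 were lower past 2-fold, Spry1 (-2.06) and Flrt2 (-1.63), and 0 higher, against 6.14% of all genes lower and 2.19% higher.

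Heparan sulfate, the sugar co-factor that FGFs need to bind their receptors, was described by the genes of its core proteins and enzymes. In mesothelial cells 3 of 13 core protein genes and 4 of 20 enzyme genes were higher past 2-fold and none lower, against 6.12% and 5.13% of all genes. Gpc6, a glypican, was at 27.5 and 65.8 CPM (1.26, 1.07 to 1.45), and Sulf2, which trims sulfates from the chains, at 28.4 and 121 CPM (2.09, 1.92 to 2.27); the others were Gpc4, Sdc3, Extl1, Hpse and Hs6st3, between 1.00 and 1.88. In mesenchymal cells Sulf1 was at 70.3 and 201 CPM (1.52, 1.43 to 1.61) and Col18a1 at 30.1 and 80.5 CPM (1.42, 1.28 to 1.56). There 1 of 13 cores and 3 of 18 enzymes were higher past 2-fold (Hs3st3b1 and Hpse beside Sulf1), against 4.49% of all genes. Lower past 2-fold was 1 enzyme, Hs3st6, from 19 and 5 UMIs, against 5.85% of all genes.

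Among the ligands, of which 8 were measured in mesothelial cells, 3 were lower past 2-fold and 3 higher there, against 5.13% and 6.12% of all genes. The lower ones were Fgf8 (9.61 and 1.72 CPM, -2.48), Fgf9 (-1.76) and Fgf16 (3.28 and 0.538 CPM, -2.61), a relative of Fgf9. The higher ones were Fgf1 (5.08 and 17.7 CPM, 1.80), Fgf10 (9.53 and 23.5 CPM, 1.30) and Fgf2 (2.42 and 5.38 CPM, 1.15). As the clusters that make up the mesothelial and mesenchymal classes differ between the libraries, a change within a cell type and a change in the mix of clusters cannot be told apart for these lists.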

How the data were processed

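The deposited values are raw counts (whole-number UMIs of each gene in each barcode), made by the authors with Cell Ranger 6.1.1, per the file headers. The submitters' processing notes also name bcl2fastq, Seurat 3.2.3 and the mm10 build. No source used here says whether counting was strand-specific. Each group is 1 pooled library, which is 1 sample: cells are not replicates, and no test between groups was made.

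Barcodes with at least 1000 UMIs, at least 300 genes and under 15% mitochondrially encoded UMIs were kept: 27179 of 30209 in Control and 9404 of 16708 in Null. A Scrublet-type score on barcodes of at least 5000 UMIs called 1152 of 13893 Control (8.29%) and 258 of 7688 Null barcodes (3.36%) as doublets, which were left out. The remaining 26027 and 9146 barcodes had median UMI counts of 4181 and 23680. Of the deposited barcodes 180 occur in both libraries, and 74 of those kept. Cells of both libraries were clustered together (30 principal components, 15 neighbours, Leiden resolution 1, igraph 0.11.9) without the 7 genes, the pathway lists, or mitochondrial, haemoglobin, ribosomal, sex-linked and immediate early genes. A class was named from at least 3 markers. Clusters within mesenchyme or mesothelium with a median below 5000 UMIs in both libraries and an acinar or endocrine list as their highest-scoring markers were kept out of their class, by a rule set after the data were seen: 1470 Control (5.65% of kept) and 509 Null (5.57%) mesenchymal and 554 (2.13%) and 370 (4.05%) mesothelial barcodes.

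CPM are the summed UMIs of a gene in a class of a library over all UMIs there except those of haemoglobin and mitochondrial genes. Levels carry exact Poisson intervals, shares exact Clopper-Pearson intervals, and ratios an exact interval conditional on the summed UMIs, all at 95% and all for counting error only. For genes measured in at least 1 library a count of 0 was set to 3 counts per library for a ratio. Classes with at least 200 cells in each library were compared, for genes with at least 20 UMIs. Free RNA was estimated from barcodes below 2000 UMIs and 6 acinar enzyme genes. Counts of the mesenchymal comparison were simulated as Poisson draws (14650 genes, 200 of them changed by 2 on the log2 scale). The intervals covered 95.7% of true ratios there. The draws held no spread between cells, clusters or pancreata, so this checks the calculation only.

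The members and lists were chosen with earlier results of these data known. Genes of a list were named from those a rule allowed: the 3 with the largest ratio in each direction among those with at least 50 UMIs and an interval that excluded 0. Not all of these were named. Fgf16, Hs6st3 and Hs3st6 were named outside the rule, being past the limit with under 50 UMIs, beside the genes marked above as named after their values were seen. Of similar genes the 3 with the highest correlation were named. Of the features, 32158 of 32285 (99.6%) had their identifier in GENCODE vM21. The listed symbols Sef, Anos1 and Cep43 matched no feature. Exon sequences of the receptors are not reported here.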

Additional observations from a re-analysis of the deposited data

Results flagged for a closer look

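For 4 genes the Null over Control ratio pointed in opposite directions in a pair of classes, with both counting intervals on their own side of 0. None of these differences was tested, since each group is 1 library. Fgfr1 was higher in Null endothelial cells and lower in Null immune cells, a difference of 1.43 on the log2 scale. This did not hold with clusters weighted alike, where the immune ratio was 0.77, and with thinned cells the endothelial ratio was 0.09. Thinned immune cells held 1 Control and 4 Null Fgfr1 UMIs, too few for a ratio. Fgfr2 was higher in Null endocrine progenitors and lower in Null immune cells, a difference of 2.21, but the immune ratio was 1.35 with clusters weighted alike. Its ratio also differed in sign between ductal or bipotent progenitor cells (0.40) and acinar cells (-0.36). Over the settings with a value these ranged from 0.09 to 0.46 and from -0.39 to -0.09. Fgfrl1 was higher in Null endocrine progenitors and lower in Null immune cells, by 1.77. Klb was higher in Null endocrine cells and lower in Null endocrine progenitors, a difference of 1.38. The endocrine ratio was -0.10 with thinned cells, and that of endocrine progenitors -0.18 at Leiden resolution 2. The immune ratios rest on 17 to 64 UMIs of a gene in a library, and the estimated share of free RNA in immune cells was 18.2% in Control and 9.78% in Null; its part was not tested. The Klb counts of endocrine progenitors were 38 and 11 UMIs.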

How the results depend on the processing

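Each of the 44 ratios was computed again under 11 other settings, 2 of them (low-UMI clusters included, male Control cells only) chosen after seeing the data. The 21 ratios whose interval excluded 0 all kept their sign under 7 settings: barcodes with at least 5000 UMIs, no doublets removed, 50 principal components, Leiden resolution 2, mean over cells, median-ratio scaling and low-UMI clusters included. So did the 16 with a value with free RNA subtracted and the 20 with male Control cells only. With clusters weighted alike, 14 of 17 kept it; the exceptions were Fgfr1 in immune and ductal or bipotent progenitor cells and Fgfr2 in immune cells, which reversed to 1.35. With cells thinned to 2000 UMIs, 12 of 14 kept it, all but Fgfr1 in acinar and Klb in endocrine cells. The Fgfr1 ratio of mesenchymal cells was 0.17 with no doublets removed, 0.33 with clusters weighted alike and 0.26 with thinned cells. In ductal or bipotent progenitor cells the Fgfr2 ratio was 0.095 with clusters weighted alike, 0.31 with median-ratio scaling and 0.46 with male Control cells only; the Fgfr3 ratio was 0.38 with clusters weighted alike, 1.18 with thinned cells and 1.06 with male Control cells. The Klb ratio of endocrine cells was -0.10 with thinned cells. The 6 ratios lower past 2-fold became 2 of 38 with clusters weighted alike (Fgfrl1 in immune cells, Klb in endocrine progenitors) and 1 of 31 with thinned cells (Fgfr4 in acinar cells). Ratios higher past 2-fold, 0 at first, numbered 1 with clusters weighted alike (Fgfr2 in immune cells), 1 with thinned cells and 1 with male Control cells only (both Fgfr3 in ductal or bipotent progenitor cells), and 2 with free RNA subtracted (Fgfrl1 in endothelial and Fgfr3 in mesenchymal cells). The cause was not tested. Subtraction of free RNA also moved 30 of 65 levels beyond their interval. Counts of listed genes past the limit moved by over 1.5 times in 36 of 94 cases with a limit of 0.58, 19 of 90 with a minimum of 100 UMIs and 13 of 82 with free RNA subtracted. In mesothelial cells, 3 core and 4 enzyme genes of heparan sulfate higher became 6 and 8 with a limit of 0.58, and the enzymes 1 with a minimum of 100 UMIs. Pairs with under 20 UMIs under a setting gave no value there, a limit set after seeing the data: Fgfr4 and Kl in mesenchymal cells had 8 and 0 thinned UMIs each, and subtraction of free RNA left 0.851 and 2.98 Fgfr4 UMIs. Kl in mesenchymal cells was -1.72 with no doublets removed. No paired analysis was possible because each group is 1 library.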

Other observations

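The genes whose levels most resembled each receptor gene were found by Pearson's r of log2(CPM + 1) over 22 points, the 11 classes in both libraries. Points of a library share its depth and points of a class its cell type, so r is a description only. For Fgfr1 these were Rai14 (0.86), Serpinh1 (0.82) and Tead2 (0.80), the last a marker used to name ductal or bipotent progenitor cells. For Fgfr2 they were Slc28a3 (0.91), Pamr1 (0.90) and Spp1 (0.90), also a ductal marker. Fgfr3 was nearest to Crp (0.91), A930038B10Rik (0.88) and Lipg (0.88). Fgfr4 was nearest to Mia (0.94), Cldn6 (0.93), an epithelial marker, and Cited1 (0.93). Fgfrl1 was nearest to Prss8 (0.89), Mapk13 (0.88) and Naaladl2 (0.87), and Klb to Dnajc24 (0.92), Anxa4 (0.90) and Pdx1 (0.89).

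In cells thinned to 2000 UMIs, 28.0% of 3679 Control and 35.7% of 2058 Null ductal or bipotent progenitor cells had a UMI of any of Fgfr1 to Fgfr4. Fgfr2 and Fgfr3 were seen together in 31 Control cells, where the product of the single shares gives 22.6 cells, and in 40 Null cells, where it gives 34.5. Fgfr2 and Fgfrl1 were seen together in 89 Control cells (product 77.0) and 40 Null cells (product 48.2). In mesenchymal cells 14.9% of 2321 Control and 16.5% of 765 Null cells had a UMI of any of the 4 genes.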
